A study of Arabidopsis thaliana with 45 samples.

Results

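The genes described here are 100 Arabidopsis thaliana probe sets whose total RNA level in non-dormant seeds climbed steeply with imbibition in water and was nearly the same at the end of imbibition in seeds treated with cordycepin, a chain-terminating adenosine analogue applied to block transcription. They were chosen on group means of log2 values in total RNA of non-dormant seeds: a 24 h mean at least 2 above the 6 h mean in water, a 24 h water mean of at least 6, and a cordycepin mean at 24 h within 0.2 of the water mean. Of 27827 probe sets, 682 met the first and second criteria and 161 met all of them, and the 100 with the largest rise were kept. A log2 difference of 1 is a doubling. The choice used 3 groups (non-dormant total RNA in cordycepin at 24 h, in water at 24 h and in water at 6 h), so every comparison that involves one of them is given below as a description without a test.

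Seeds of the line NILDOG1-Cvi in the Landsberg erecta background were profiled on 45 arrays, 21 of polysomal RNA (transcripts bound by ribosomes) and 24 of total RNA. The groups combine non-dormant or dormant seeds, cordycepin or water, 24 h or 6 h of imbibition, and the RNA type, which makes 16 groups that all share this one genotype. Each group held 3 arrays, apart from 3 groups of polysomal RNA at 24 h with 2 arrays each, namely non-dormant seeds in cordycepin, dormant seeds in cordycepin and dormant seeds in water. Per the labels, seeds of 8 plants were bulked for each replicate. The sources used here give neither how non-dormant seeds were obtained nor whether polysomal and total RNA came from the same bulks. The treatment field of the labels speaks of dry seeds and the molecule field names total RNA throughout, and the groups follow the titles and sample characteristics instead. The dose of cordycepin and how far it blocked transcription are not given either.

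When a dry seed takes up water, it first works with messenger RNA and ribosomes stored during maturation, and new transcription then rebuilds metabolism, translation and the cell wall before the radicle emerges. Dormant seeds also take up water and resume metabolism but do not complete germination. DOG1, the locus that gives the line its name, is a main determinant of how deep dormancy is.

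On the arrays, medians lay between 3.86 and 4.32 and the correlation of an array with the mean of the rest of its group between 0.960 and 0.985. Lower quartiles of the arrays ran up to 2.92, and values near or under that mark are open to background. All 100 probe sets matched the reference table of loci. Of these, 45 have a gene symbol there, while 55 have none and are named here by locus, whatever is known of them elsewhere. The number of arrays limits the precision. Because the normalization scales arrays to each other, each value is relative to the average transcript, and in whole seeds fewer cells of a type and less RNA per cell cannot be told apart.

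The values that chose the genes are given first. In non-dormant total RNA the level at 24 h in water ranged from 6.08 to 11.39 across the 100 genes and that at 6 h from 2.93 to 8.90. The 24 h minus 6 h difference ranged from 2.26 to 6.18, with a median of 2.62. XTH15 (AT4G14130), a xyloglucan-modifying cell wall enzyme, led the ranking at 6.18, followed by CWLP (AT3G22120), a cell wall protein, at 5.0 and HTA8 (AT2G38810), a histone H2A variant, at 4.24. Just inside the end of the ranking lay AT2G46930, BCAT3 and TOPP1 with rises of 2.27, 2.27 and 2.26, and just outside it AMY3, TOM6 and AT5G18920 with 2.25, 2.24 and 2.24. Cordycepin minus water at 24 h had a median of -0.08, against -0.44 in the 682 induced probe sets. The 95% confidence interval of that difference lay within 1 of zero for all 100 genes but within 0.5 for 19, so the window of 0.2 is narrower than the error of most single genes. Nearest its edge were AT5G47700, RPL24A and AT3G11630 inside (-0.20 each) and PLP9, DEG2 and HHP3 outside, which differ from them only in the third decimal.

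**Figure D1:**
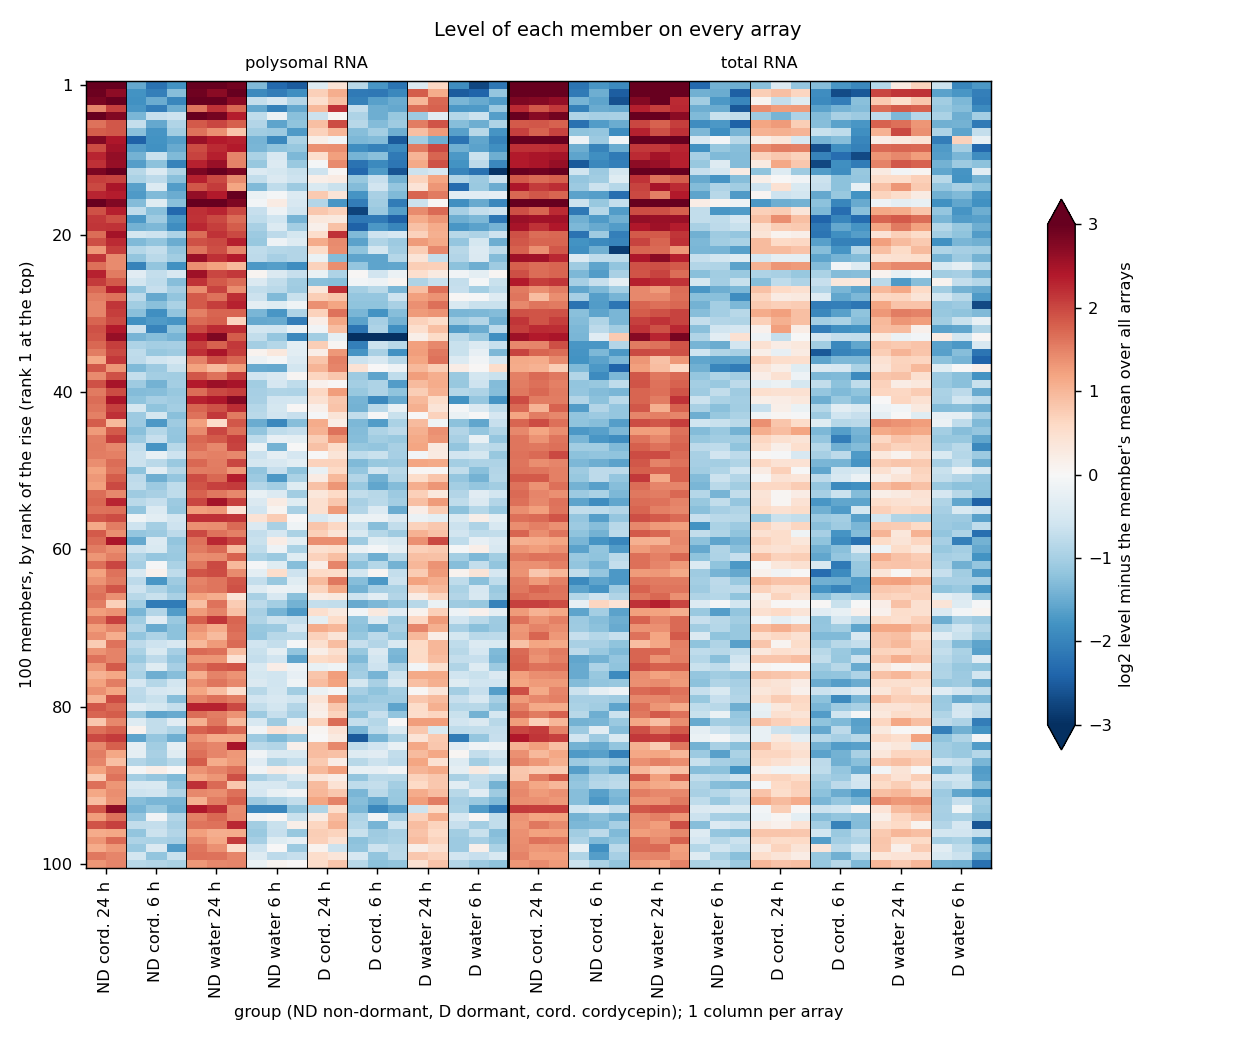
Level of each of the 100 genes (rows, by rank of the rise) on each of the 45 arrays (columns, by group, polysomal RNA left and total RNA right), as log2 level minus the gene's own mean over all arrays, with colours held at 3 beyond that size. The 24 h arrays of non-dormant seeds are the highest in both RNA types and in both treatments, the 24 h arrays of dormant seeds are intermediate, and the 6 h arrays are low.

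In polysomal RNA of non-dormant seeds, whose arrays had no part in the choice, all 100 genes rose with imbibition in water. The 24 h minus 6 h difference ran from 1.40 to 5.71 with a median of 2.38, and each gene passed the limma test at an adjusted p under 0.05, against 17.8% of all probe sets called higher. The induced probe sets as a whole behaved alike, with a median of 2.44. XTH15 again led (5.71 ± 0.40, SE, adjusted p = 3.1e-14), ahead of CWLP (4.84 ± 0.28, adjusted p = 3.64e-16), the locus AT1G66180 (3.84) and HTA8 (3.82). The smallest rises were those of AT1G29250 (1.40) and of TOPP1, a type one protein phosphatase (1.44). In cordycepin all 100 genes also rose from 6 h to 24 h in polysomal RNA, by a median of 2.65, where 15.1% of all probe sets were called higher. This was not particular to them. Of the 682 induced probe sets 98.1% were called higher (median 2.43). Of the 118 induced probe sets lower by at least 1 with cordycepin at 24 h in total RNA, 94.1% were called higher (median 2.64). The summed level of 5 embryo epidermis markers was higher at 24 h too (10.56 to 10.87 on a log2 scale, against 9.79 to 9.93 at 6 h, 4 of 5 called higher), while endosperm markers summed to 10.28 to 10.44, against 10.09 to 10.43 (2 of 4 higher, 1 lower). Their part in the rise was not tested.

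**Figure D2:**
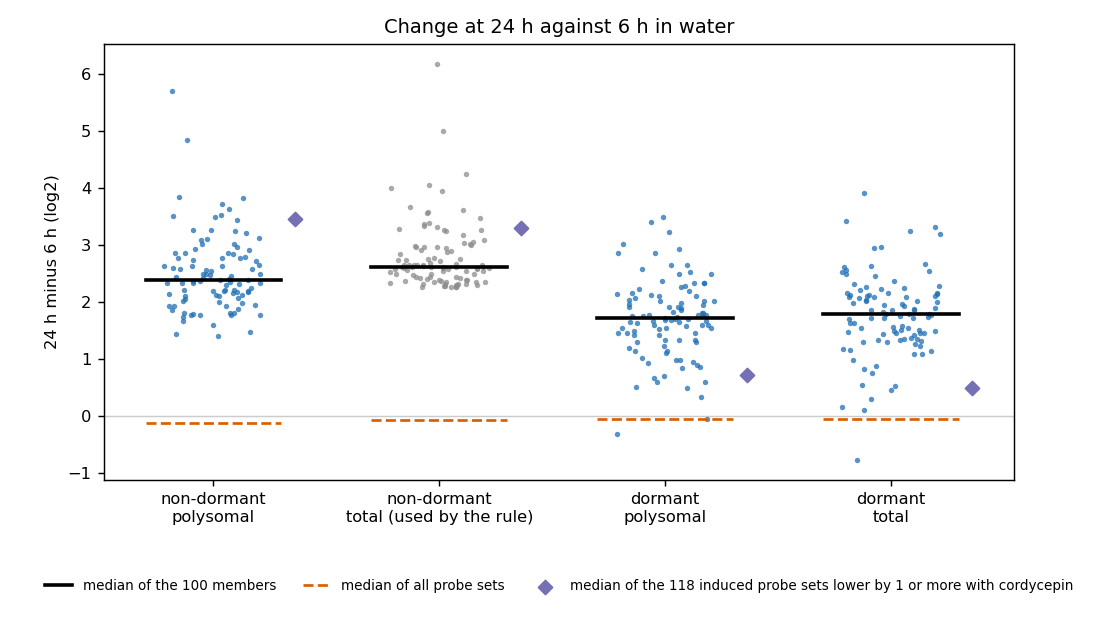
Difference between 24 h and 6 h in water (log2) for each of the 100 genes in 4 settings, with the median of the genes (black), of all probe sets (dashed) and of the 118 induced probe sets that were lower by at least 1 with cordycepin (diamonds). Medians of the 100 genes are 2.38, 2.62, 1.71 and 1.78 from left to right, and the 118 probe sets lie higher in non-dormant seeds and lower in dormant seeds.

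At 24 h none of the 100 genes was called changed by cordycepin in polysomal RNA of non-dormant seeds, where few probe sets were called at all. In limma 0 were called higher and 0 lower, with 4 at an unadjusted p under 0.05, against 1.44% of all probe sets called higher and 1.25% called lower, so the count is close to this background. Cordycepin minus water had a median of -0.06 and ran from -0.60 for ABCG37, an ABC transporter, to 0.82 for TAR2, an enzyme of auxin synthesis. The 95% interval lay within 1 of zero for 81 genes and within 0.5 for 5, so changes under about 0.5 were not resolved for most. The 118 probe sets that met the rise and level criteria but were lower by at least 1 with cordycepin in total RNA had a median of -1.03 here, and 48 of them (40.7%) were called lower. The 682 induced probe sets, which hold both sets, had a median of -0.34, and 57 of them (8.36%) were called lower. Those 118 were chosen on the same total RNA arrays as the 100 genes, and the difference between both sets was not tested.

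TAR2 gave the largest positive value, with 7.33 and 7.45 in the cordycepin arrays, against 6.73, 6.48 and 6.50 in the water arrays. Its cordycepin arrays lay above all water arrays, but the difference of 0.82 ± 0.33 (SE) did not pass the test (adjusted p = 0.246). ABCG37 stood at 6.95 and 6.23 in cordycepin, against 7.39, 7.0 and 7.17 in water, again without overlap and without a call (-0.60 ± 0.28, adjusted p = 0.365). Across the 100 genes the arrays of the treatments were separate in 15, with cordycepin above water in 9 and below it in 6, against 12.9% and 12.1% of all probe sets.

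When the same 3 criteria were applied to polysomal RNA, 146 probe sets met them and 61 met them in both RNA types, which is 41.8% of the polysomal list and 37.9% of the 161 in total RNA. Of the 100 genes, 77 met the polysomal rise and level criteria and 47 met all, while 21.2% of the 689 probe sets induced in polysomal RNA met its window. Without replicate 2 of the cordycepin arrays, 26 of the 100 met all criteria.

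**Figure D3:**
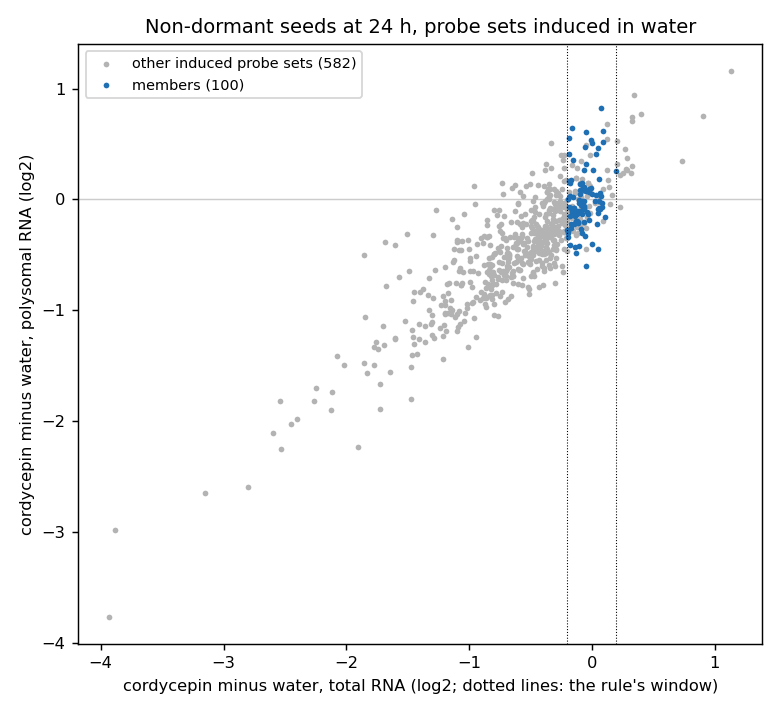
Cordycepin minus water at 24 h in non-dormant seeds (log2) for the 682 probe sets induced in water, with total RNA on the horizontal and polysomal RNA on the vertical axis. The dotted lines mark the window of 0.2 that chose the 100 genes (blue), which lie between -0.60 and 0.82 in polysomal RNA.

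At 6 h, the earlier of the times sampled, the 100 genes tended to lower values in cordycepin. In non-dormant polysomal RNA the median difference was -0.25 and 84 of 100 genes were below zero, but the same median was found for all 682 induced probe sets. In limma 26 of the 100 genes were at an unadjusted p under 0.05, as were 152 of the 682 induced probe sets. One gene, the locus AT5G47190, was called lower, where 0.0216% of all probe sets were. It stood at 4.03, 4.39 and 4.24 in cordycepin, against 5.52, 5.66 and 5.32 in water, with no overlap (-1.28 ± 0.25, SE, adjusted p = 0.0447). By 24 h its cordycepin arrays (8.01 and 8.09) lay just under its water arrays (8.35, 8.10 and 8.92), and the difference of -0.41 ± 0.28 did not pass (adjusted p = 0.659). The call at 6 h was lost whichever of the 6 arrays was left out. HTA8 (-1.05) and TUB3, a beta-tubulin gene (-1.03), came next and did not pass (adjusted p = 0.244 and 0.202).

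The other settings at 6 h gave medians of -0.22 in non-dormant total RNA, which is a description, -0.15 in dormant polysomal RNA and -0.17 in dormant total RNA. In dormant total RNA limma called 0 of the genes, with 20 at an unadjusted p under 0.05, against 0.201% of all probe sets called either way. In dormant polysomal RNA the locus AT1G28660 was called lower (-1.97, adjusted p = 0.0484, background 0.00719%), with cordycepin arrays at 0.96, 1.04 and 1.11, against 3.45, 3.14 and 2.42 in water. These values lie near or under the lower quartile of the arrays. The cordycepin by time interaction in non-dormant polysomal RNA, which asks whether the 24 h difference departs from the 6 h one, had a median of 0.28 and 0 calls by limma, with 11 genes at an unadjusted p under 0.05, against 0.453% of all probe sets called.

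**Figure D4:**
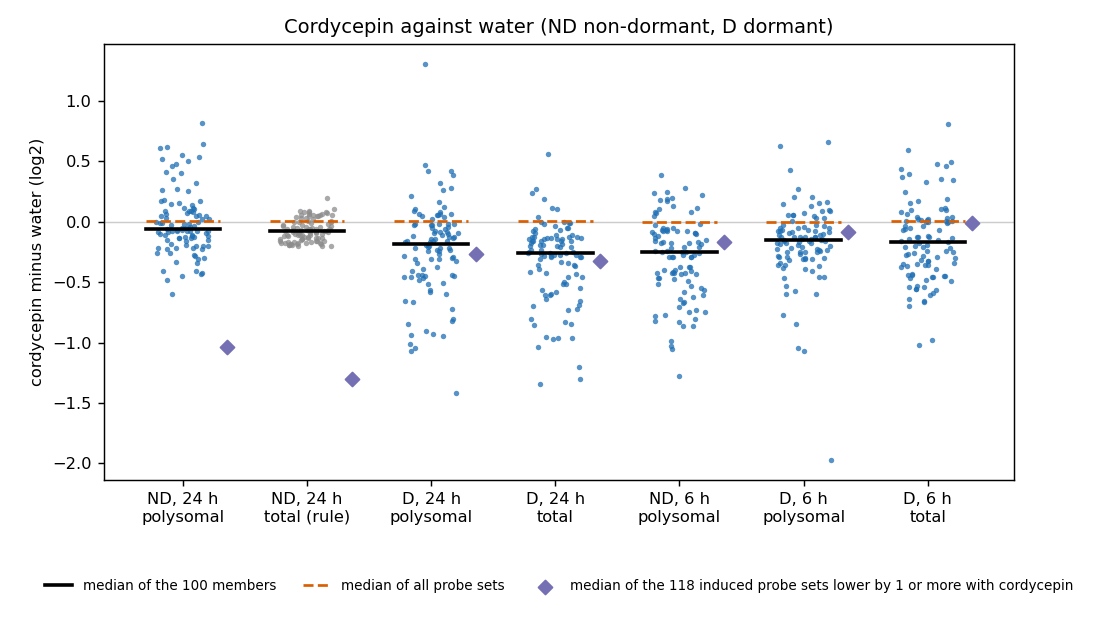
Cordycepin minus water (log2) for each of the 100 genes in 7 settings, with the median of the genes (black), of all probe sets (dashed) and of the 118 induced probe sets lower by at least 1 with cordycepin (diamonds). The genes centre near -0.06 in non-dormant polysomal RNA at 24 h and between -0.15 and -0.26 in dormant seeds and at 6 h, and the diamonds lie far lower only in the 2 non-dormant settings at 24 h. In non-dormant total RNA at 24 h the choice itself set them apart.

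Dormant seeds raised most of these genes as well. In dormant total RNA in water 91 of the 100 were higher at 24 h than at 6 h and 1 was lower, with a median difference of 1.78, against 9.61% of all probe sets called higher and 8.51% lower. In dormant polysomal RNA 89 were higher (median 1.71, background 7.94%). In all, 88 genes rose in each of the dormant total, dormant polysomal and non-dormant polysomal comparisons. The share of all probe sets for this joint count is not given here. In the 118 probe sets lowered by cordycepin the medians in dormant seeds were 0.49 in total RNA, with 32.2% called higher, and 0.71 in polysomal RNA. Endosperm markers in dormant total RNA summed to 11.17 to 11.37 at 24 h, against 11.18 to 11.45 at 6 h (3 of 4 higher), and their part was not tested. In cordycepin 83 of the 100 genes rose in dormant total RNA (median 1.64, background 9.46%). Of the 682 induced probe sets 56.9% did so (median 0.95).

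CWLP had the largest rise in dormant total RNA, to 9.23, 9.37 and 9.38 at 24 h, against 5.62, 5.48 and 5.16 at 6 h (3.91 ± 0.28, SE, adjusted p = 1.03e-12). GRP4 (AT3G23830), a glycine-rich RNA-binding protein, followed with 10.40, 10.46 and 10.42 at 24 h, against 7.01, 7.69 and 6.34 at 6 h (3.41 ± 0.23, adjusted p = 1.65e-13). Both were well separated by time. At the other end SLD1 (AT3G61580), a sphingolipid desaturase, had 3.62, 2.74 and 3.16 at 24 h, against 4.53, 3.72 and 3.58 at 6 h. It was the gene called lower (-0.77 ± 0.26, adjusted p = 0.0376), at levels close to the lower quartile of the arrays. This call was lost in 5 of 12 alternative fits (adjusted p = 0.0151 to 0.276). Genes with a symbol that missed the test were CYS2, a cystatin-type protease inhibitor (0.75, adjusted p = 0.0514), PIN7, an auxin efflux carrier (0.54), ABCG25, an exporter of abscisic acid (0.52), and MDAR1, a monodehydroascorbate reductase (0.45).

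In dormant seeds most of the genes lay slightly below their water level in cordycepin, and few passed the test. In dormant total RNA at 24 h the median difference was -0.26 and 93 of 100 genes were below zero, and 3 were called lower where 0.456% of all probe sets were. In limma 24 of the 100 were at an unadjusted p under 0.05, as were 210 of the 682 induced probe sets. The 682 induced probe sets had a median of -0.34 and the 118 lowered ones -0.33, with 7.77% and 7.63% called lower. By median the sets lay close together here, while the choice itself had set them apart in non-dormant total RNA. The 118 had risen by a median of only 0.49 in dormant total RNA in water, and the part of this was not tested. In dormant polysomal RNA the median was -0.18 and 78 genes were below zero, and limma called 0, with 13 at an unadjusted p under 0.05, against 0.377% of all probe sets called either way. In 72 genes the difference was below zero in both RNA types, a count given without the share of all probe sets. Without replicate 1 of the dormant polysomal cordycepin arrays 1 gene was called, and without replicate 3 of the dormant total cordycepin arrays 1 of the 3 calls was left. Endosperm markers summed to 10.99 to 11.24 in cordycepin, against 11.17 to 11.37 in water, and embryo epidermis markers to 9.42 to 9.63, against 9.74 to 9.84, in dormant total RNA, with 0 of 4 and 1 of 5 called lower. Their part in the shift was not tested.

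The 3 called genes were CWLP, FAD3 and the locus AT1G30820. With only the arrays compared in the fit 0 were called, while a further quantile normalization gave 5 calls, a filter on mean level 8 and array weights 12. CWLP stood at 7.96, 8.13 and 7.86 in cordycepin, against 9.23, 9.37 and 9.38 in water (-1.35 ± 0.28, SE, adjusted p = 0.00771). FAD3 (AT2G29980), the desaturase that makes linolenic acid in the endoplasmic reticulum, stood at 5.40, 5.66 and 5.71, against 6.97, 6.82 and 6.89 (-1.31 ± 0.26, adjusted p = 0.00401). The groups did not overlap in either gene. AT1G30820 had 5.31, 5.28 and 5.11, against 6.36, 6.03 and 6.20 (-0.96 ± 0.22, adjusted p = 0.017). In dormant polysomal RNA the differences were -0.56 for CWLP, -1.01 for FAD3 and -0.94 for AT1G30820, none of which passed (adjusted p = 0.777, 0.188 and 0.129).

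Whether the response to cordycepin at 24 h differs between non-dormant and dormant seeds was tested in polysomal RNA. The interaction had a median of 0.16, limma called 0 of the 100 genes, and 7 were at an unadjusted p under 0.05. Of all probe sets 0.18% were called. CPD (AT5G05690), a cytochrome P450 of brassinosteroid synthesis, had the largest value, with 7.21 and 7.67 in cordycepin, against 7.08, 7.31 and 6.40 in water, in non-dormant seeds, and 4.77 and 4.55 in cordycepin, against 5.62 and 6.53 in water, in dormant seeds. Only the dormant groups were separate. Its interaction of 1.92 ± 0.53 (SE) did not pass the adjustment over all probe sets (adjusted p = 0.182).

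Polysomal levels of these genes at 24 h in water were mostly higher in non-dormant than in dormant seeds. The difference had a median of 0.75 and 53 of the 100 genes were called higher in non-dormant seeds and 0 lower, against 10.3% and 8.13% of all probe sets. This was less than in the induced probe sets as a whole (70.4% called higher) and in the 118 lowered ones (94.9%, median 2.83), whose choice rests on non-dormant seeds as that of the 100 genes does, and those contrasts between sets were not tested. Without replicate 1 or without replicate 2 of the dormant arrays the count was 34, and with only the arrays compared in the fit it was 33. At 6 h the median was 0.15, with 6 genes higher and 2 lower in non-dormant seeds (background 2.3% and 2.19%). Tissue markers also differed between these seeds at 24 h: embryo epidermis markers summed to 10.56 to 10.87 in non-dormant seeds, against 9.67 to 9.70 in dormant seeds (4 of 5 higher), endosperm markers to 10.28 to 10.44, against 10.54 to 10.82 (2 of 4 higher, 1 lower), and seed coat markers to 6.36 to 6.48, against 5.97 to 6.11 (1 of 7 higher). Their part in the dormancy difference was not tested.

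The rise itself was larger in non-dormant than in dormant seeds for 25 of the 100 genes by the dormancy by time interaction in polysomal RNA, and smaller for 0, against 4.17% and 3.18% of all probe sets. The median interaction was 0.59. Of the 682 induced probe sets 41.9% had a called larger rise in non-dormant seeds (median 1.06), and of the 118 lowered ones 80.5%. All these sets were chosen on the rise in non-dormant seeds, and the contrast between them was not tested. Of the 25 genes, 16 also rose in dormant polysomal RNA. In 82 of the 100 genes the rise in dormant seeds was at least 50% of that in non-dormant seeds on the log2 scale. No share of other probe sets is given beside this count. Without replicate 1 of the dormant 24 h water arrays 16 genes were called. This test shares its 24 h and 6 h water arrays with the comparisons of time and of dormancy above.

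Among cell wall genes, XTH15 had the largest interaction of the genes with a symbol. In polysomal RNA at 24 h it stood at 8.62, 9.04 and 7.67 in non-dormant seeds, against 4.36 and 5.39 in dormant seeds, and at 6 h at 3.45, 2.46 and 2.29, against 2.92, 2.05 and 2.65. The 24 h groups were far apart (3.57 ± 0.44, SE, adjusted p = 8.14e-08) while the 6 h groups overlapped at the level of background, which limits the size of the rise. The interaction was 3.37 ± 0.59 (adjusted p = 0.000137). EXPA9 (AT5G02260), an expansin that loosens walls, was already higher in non-dormant seeds at 6 h, with 5.26, 5.14 and 5.02, against 3.69, 3.45 and 2.75 (1.85 ± 0.30, adjusted p = 6.67e-05). At 24 h its arrays read 8.50, 8.91 and 8.51 in non-dormant seeds, against 5.03 and 5.18 in dormant seeds (3.54 ± 0.33, adjusted p = 2.1e-10). Neither XTH15 (0.61) nor EXPA9 (0.11) passed the test of cordycepin at 24 h in non-dormant polysomal RNA (adjusted p = 0.703 and 0.97).

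CWLP rose in both kinds of seed. Its non-dormant polysomal arrays read 10.13, 9.94 and 10.27 at 24 h, against 5.30, 5.13 and 5.39 at 6 h, and its dormant ones 9.04 and 8.34, against 4.73, 4.81 and 6.06. The rise in non-dormant minus that in dormant seeds was 1.35 ± 0.42 (SE, adjusted p = 0.0428), a call that was lost in 9 of 17 alternative fits (adjusted p = 0.0199 to 0.322). FLA8 (AT2G45470), a fasciclin-like arabinogalactan protein of the cell surface, reached 8.77, 8.61 and 8.39 at 24 h in non-dormant seeds, against 8.14 and 8.12 in dormant seeds, a difference of 0.46 that did not pass (adjusted p = 0.276). SLP2, a subtilisin-like protease, stood at 9.38, 9.16 and 8.38 in non-dormant seeds, against 6.33 and 7.54 in dormant seeds (2.04 ± 0.38, adjusted p = 8.53e-05), and its interaction was 2.17 (adjusted p = 0.00392).

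**Figure D5:**
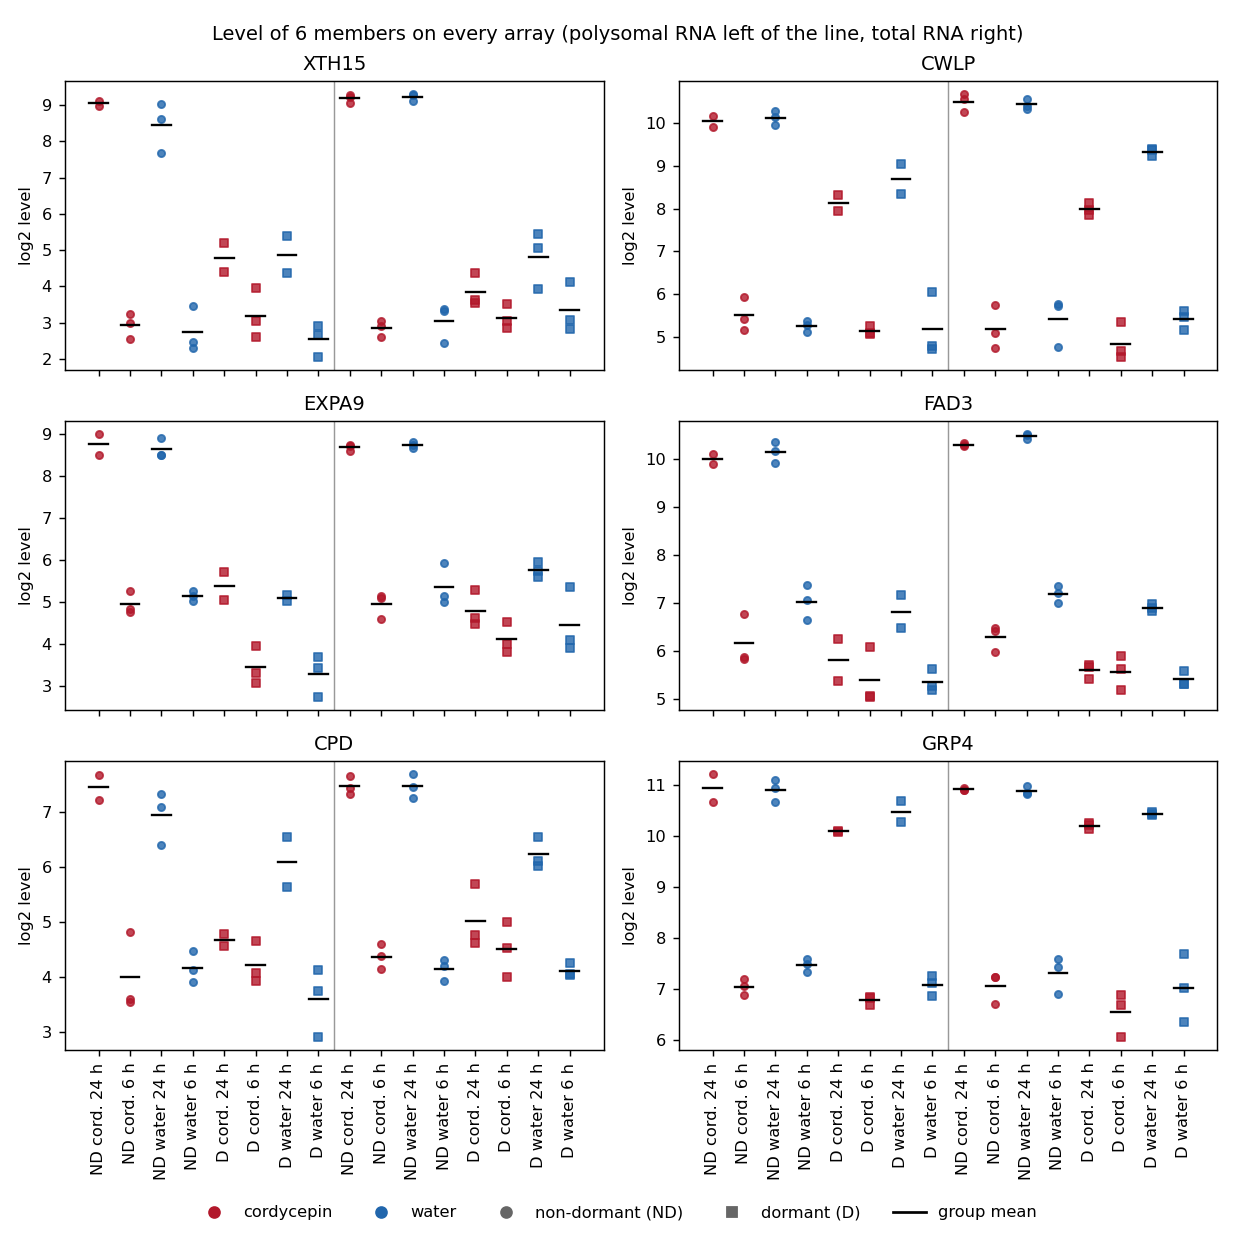
Log2 level of 6 of the genes on every array in the 16 groups, with non-dormant seeds as circles, dormant seeds as squares, cordycepin in red, water in blue and the group mean as a bar. XTH15, EXPA9 and FAD3 are high in non-dormant seeds at 24 h in either treatment and far lower in dormant seeds, and GRP4 is high at 24 h in all groups. In dormant total RNA at 24 h the cordycepin arrays of CWLP, FAD3 and CPD lie below the water arrays.

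Genes of hormone synthesis and transport were a mixed group. CPD rose in non-dormant polysomal RNA (2.77 ± 0.32, SE, adjusted p = 6.87e-09) and in dormant total RNA, where its 24 h arrays read 6.10, 6.55 and 6.01, against 4.05, 4.25 and 4.02 at 6 h. In dormant total RNA it stood at 4.61, 5.68 and 4.75 in cordycepin at 24 h, below the water arrays, which just missed the threshold (-1.21 ± 0.32, adjusted p = 0.054). TAR2 rose by 2.38 in non-dormant and 1.91 in dormant polysomal RNA, with no detected difference between these rises (0.47 ± 0.45, adjusted p = 0.697). PIN7 reached 5.35, 6.07 and 5.20 at 24 h in non-dormant seeds, against 3.60 and 4.25 in dormant seeds (1.62 ± 0.33, adjusted p = 0.000321).

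ABCG37, known for exporting auxin precursors and phenolic compounds from roots, stood at 7.39, 7.0 and 7.17 in non-dormant seeds at 24 h, against 5.19 and 4.08 in dormant seeds, with no overlap (2.55 ± 0.28, SE, adjusted p = 5.74e-09), and its interaction was 2.57 (adjusted p = 7.11e-06). ABCG25 differed in the opposite way at 6 h, with 5.60, 5.16 and 4.86 in non-dormant seeds, against 6.42, 6.69 and 6.29 in dormant seeds (-1.26 ± 0.22, adjusted p = 0.000236). At 24 h non-dormant seeds were the higher ones, with 7.84, 8.07 and 7.44, against 6.68 and 7.28 (0.80 ± 0.25, adjusted p = 0.0192), so that the order of the groups turned between the times. The dormant group at 24 h held 2 arrays, and the 24 h call was not kept in every alternative fit. The interaction of ABCG25 was 2.06 (adjusted p = 3.95e-05). CYS2 was likewise lower in non-dormant seeds at 6 h (-1.47, adjusted p = 0.000432) and not called at 24 h (0.27).

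Lipid genes among the 100 act in different pathways. FAD3 was higher in non-dormant polysomal RNA at both times, with 10.35, 10.16 and 9.92 at 24 h, against 6.48 and 7.15 in dormant seeds (3.33 ± 0.29, SE, adjusted p = 2.38e-11), and with 7.05, 7.37 and 6.63 at 6 h, against 5.27, 5.62 and 5.18 (1.66, adjusted p = 3.5e-05). At 24 h in non-dormant polysomal RNA its cordycepin arrays (10.10 and 9.89) overlapped the water arrays (-0.15 ± 0.29, adjusted p = 0.947). SLD1 rose in non-dormant polysomal RNA, to 6.59, 6.27 and 6.10, against 4.01, 3.70 and 3.38 at 6 h, while its dormant arrays read 3.52 and 3.74 at 24 h, against 3.72, 4.38 and 3.76. The interaction of 2.95 ± 0.40 (adjusted p = 1.68e-06) was the largest after XTH15 among genes with a symbol. ACP2, a plastid acyl carrier protein, and ATS1, a plastid glycerol-3-phosphate acyltransferase, rose by 3.21 and 2.15 in non-dormant and 2.33 and 1.10 in dormant polysomal RNA.

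Of the 45 genes with a symbol, several encode RNA-binding or ribosomal proteins, and those given here were picked for their roles after their values were seen. Such proteins among the 55 loci without a symbol were not counted, so the share of this class in the 100 genes is not given. GRP4 stood at 10.67, 10.93 and 11.09 in non-dormant polysomal RNA at 24 h, against 10.27 and 10.67 in dormant seeds, and its rise differed by 0.03 ± 0.34 (SE, adjusted p = 0.981). RPL24A (AT2G36620) and RPL16A (AT2G42740), proteins of the large ribosomal subunit, rose by 2.64 and 2.72 in non-dormant polysomal RNA and by 2.53 and 2.09 in dormant total RNA. RPL24A was higher by 0.87 in non-dormant than in dormant polysomal RNA at 24 h (adjusted p = 0.011), and RPL16A did not pass (adjusted p = 0.221). The call for RPL24A was not kept in every alternative fit. UBQ1, a fusion of ubiquitin with a ribosomal protein, read 8.27, 8.78 and 8.17 in non-dormant seeds at 24 h, against 8.44 and 8.45 in dormant seeds, with overlapping groups (-0.04 ± 0.31, adjusted p = 0.959). RACK1C_AT, a scaffold protein of the small ribosomal subunit, rose by 2.38 and 1.78 in non-dormant and dormant polysomal RNA.

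Nucleotide and amino acid metabolism had several members. ADK2, an adenosine kinase, stood at 7.94 and 7.78 in cordycepin, against 8.39, 8.39 and 8.06 in water, in non-dormant polysomal RNA at 24 h, without overlap and without a call (-0.42 ± 0.25, SE, adjusted p = 0.573). The salvage enzymes UPP, a uracil phosphoribosyltransferase, and APT1, an adenine phosphoribosyltransferase, rose by 3.25 and 2.86 in non-dormant and by 2.04 and 1.91 in dormant polysomal RNA, and the interaction was called for UPP (1.21, adjusted p = 0.0108), APT1 (0.95, adjusted p = 0.0171) and ADK2 (1.15, adjusted p = 0.0305). The call for ADK2 was lost in 8 of 17 alternative fits (adjusted p = 0.00676 to 0.206), that for APT1 in 3 and that for UPP in 2. It was not called for the amino acid genes ASN3 (0.78), an asparagine synthetase, ATMS1 (0.50), a methionine synthase, BCAT3 (0.87), a branched-chain aminotransferase, and GLDP2 (0.45), a glycine decarboxylase subunit. Among mitochondrial proteins FUM1, a fumarase, reached 8.29, 8.32 and 8.25 at 24 h in non-dormant seeds, against 6.73 and 7.10 in dormant seeds (1.38 ± 0.23, adjusted p = 1.86e-05). MPPalpha, a subunit of the mitochondrial processing peptidase, had an interaction of 1.16 (adjusted p = 0.0383), a call lost in 10 of 17 alternative fits (adjusted p = 0.00206 to 0.136). Genes of this paragraph were picked for their roles after their values were seen.

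The serine carboxypeptidase-like genes scpl26 and scpl35 rose by 2.55 and 2.86 in non-dormant and by 2.50 and 2.66 in dormant polysomal RNA. At 24 h scpl26 stood at 7.18, 6.90 and 6.38 in non-dormant seeds, against 6.45 and 6.82 in dormant seeds, with overlapping groups (0.19 ± 0.32, SE, adjusted p = 0.789). BTI3, a reticulon-like protein of the endoplasmic reticulum, rose by 2.50 and 1.76, and in dormant total RNA at 24 h it had one of the few positive differences with cordycepin (0.12 ± 0.27, adjusted p = 0.954). NIK3, a receptor-like kinase, read 7.36, 7.04 and 6.47 in non-dormant polysomal RNA at 24 h, against 5.73 and 6.25 in dormant seeds, and was higher in non-dormant seeds (0.97 ± 0.27, adjusted p = 0.00741). That call was not kept in every alternative fit.

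HTA8 was the one core histone gene among the 100. In non-dormant polysomal RNA it read 8.76, 9.09 and 8.33 at 24 h in water, against 4.88, 5.10 and 4.74 at 6 h, and its cordycepin arrays at 24 h (8.46 and 9.11) overlapped the water arrays. In dormant total RNA it stood at 5.70, 4.90 and 5.24 in cordycepin at 24 h, against 6.39, 6.13 and 6.42 in water, a separation that did not pass (-1.03 ± 0.30, SE, adjusted p = 0.0895). TUB3 reached 10.37, 10.62 and 10.25 at 24 h in non-dormant polysomal RNA, against 9.43 and 9.74 in dormant seeds, which just missed the threshold (0.82 ± 0.30, adjusted p = 0.0506).

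Of the 55 genes without a symbol, AT3G05910 and AT1G66180 showed the largest dormancy by time interactions, each 3.17. AT3G05910 read 6.97, 6.70 and 6.19 in non-dormant polysomal RNA at 24 h, against 2.73 and 3.50 in dormant seeds, whose 6 h arrays (2.97, 3.20 and 2.18) overlapped these. It rose in neither dormant comparison (0.16 in total and 0.34 in polysomal RNA, adjusted p = 0.756 and 0.598). AT1G66180 was also lower in polysomal than in total RNA of dormant seeds at 24 h (-1.55, adjusted p = 0.0149). These loci were singled out after their values were seen.

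Polysomal and total RNA of dormant seeds in water, the setting in which this comparison is free of the arrays used for the choice, gave few calls at 24 h. There 5 of the 100 genes were higher in polysomal RNA and 2 lower (background 7.7% and 8.85%), with a median of 0.13. At 6 h 23 were higher and 7 lower (background 12.8% and 11.5%), with a median of 0.16. PIN7 was lower in polysomal RNA at both times (-1.03 and -1.38, adjusted p = 0.0278 and 0.000751), and EXPA9 at 6 h (-1.17, adjusted p = 0.00412). MDAR1, TUB3 and MPPalpha were higher at 6 h, by 1.07, 0.95 and 1.12 (adjusted p = 0.000145, 0.00852 and 0.000803).

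The families of the named genes are given for context, by gene symbol, so loci without a symbol are not counted even where they belong to a family. Of all probe sets 17.8% were called higher and 17.3% lower at 24 h in non-dormant polysomal RNA, 9.61% higher in dormant total RNA, and 1.25% lower with cordycepin. Of 44 genes with ribosomal protein symbols, cytosolic and organellar, 43 rose in non-dormant polysomal RNA (median 1.31) and 39 in dormant total RNA (median 1.20), and 1 was lower with cordycepin at 24 h in non-dormant polysomal RNA. Of 15 tubulin genes 12 rose in non-dormant polysomal RNA and 2 in dormant total RNA, a share close to that of all probe sets, with 1 lower in cordycepin. Of 30 expansins 12 rose and 2 fell, of 33 xyloglucan endotransglucosylases 11 rose and 5 fell, of 50 arabinogalactan and fasciclin-like genes 19 rose and 6 fell, and of 23 core histones 9 rose and 5 fell in non-dormant polysomal RNA. Lists with no gene among the 100 included DNA replication, with 20 of 26 higher and 0 lower with cordycepin (median -0.63), and indole glucosinolate synthesis, with 9 of 10 higher and 6 lower with cordycepin (median -1.01). The 100 genes were spread over the chromosomes by locus number as 19, 24, 23, 11 and 23 on chromosomes 1 to 5, against 25.9%, 15.8%, 19.9%, 15.1% and 22.9% of all probe sets.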

How the data were processed

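The authors deposited log2 expression values made with RMA (background correction, normalization between arrays and probe summary), as the submitters' processing notes say. The sources used here name neither a version of RMA nor the array type. All 45 columns matched a sample and 0 were left unmapped. The 27827 probe sets are named by locus, and 10556 have a symbol in RefSeq's list of loci (assembly TAIR10.1), used for names only. No further normalization was applied.

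Group means over all 45 arrays and all probe sets were estimated in 1 linear model with limma 3.58.1 in R 4.3.3 (data.table version 1.17.8). It left 29 residual degrees of freedom, and the prior SD was 0.294. P-values were adjusted by Benjamini-Hochberg over all probe sets of a comparison and called under 0.05. They measure the spread between bulks, pooled over 16 groups. The procedure was tested on simulated data, and figures were drawn with matplotlib 3.10.9. Marker levels are log2 of summed linear values. The members, gene lists and tests were chosen with earlier results of these data known. Named genes are those with a symbol among the 20 largest rises, those on a gene list, those at the ends of 4 comparisons and those at the rule's edges. Others were added for their role or call after their values were seen. Lists were matched by symbol, and 9 loci whose symbol belongs to another gene were left out after their identity was seen. Same-numbered arrays of the 24 h and 6 h non-dormant polysomal groups deviated together (correlations of 0.15, 0.39 and 0.49), which is a pairing seen in the data and not stated in the labels. Between cordycepin and water at 24 h the correlations were 0.24 and 0.39 in non-dormant polysomal RNA and 0.31 in dormant polysomal RNA. In dormant total RNA they were 0.01 to 0.06. The main fit ignored this pairing, and an alternative fit used the replicate number as a block.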

Additional observations from a re-analysis of the deposited data

Results flagged for a closer look

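The rise in polysomal RNA in water differed between non-dormant and dormant seeds, by the limma dormancy by time interaction, for 25 of the 100 genes, always with the larger rise in non-dormant seeds. The 5 largest values among genes with a symbol were 3.37 for XTH15, 2.95 for SLD1, 2.57 for ABCG37, 2.17 for SLP2 and 2.06 for ABCG25 (log2). Of the 682 induced probe sets, also chosen on non-dormant seeds, 41.9% had a called larger rise in non-dormant seeds. Without replicate 1 of the dormant 24 h water arrays 16 of the 100 were called.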

How the results depend on the processing

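Counts were recomputed with a further quantile normalization, trend and robust estimation, array weights, a filter on a mean of at least 4 (14231 probe sets, 99 of the genes), the replicate number as a block, only the arrays compared, and each array left out in turn. The 1 call with cordycepin at 6 h in non-dormant polysomal RNA became 0 (quantile), 2 (trend), 7 (weights), 3 (filter), 3 (replicate block), 0 (arrays compared only) and 0 to 0 with arrays left out. The 3 lower calls in dormant total RNA at 24 h became 5 (quantile), 12 (weights), 8 (filter), 13 (replicate block), 0 (arrays compared only) and 1 to 4 with arrays left out, and the 0 in dormant polysomal RNA became 4 with the replicate block and 0 to 1 with arrays left out. The 53 genes higher in non-dormant seeds became 33 with the arrays compared only and 34 to 47 with arrays left out, and the 25 interactions 16 to 25. The replicate block moved no other count of calls by over 1.5 times. The rule gave 88 probe sets with a window of 0.1, 377 with 0.5, 742 with a rise of at least 1, and 129 to 171 with arrays left out. Of the 100 genes, 77 to 100 met it with arrays left out and 58 with a window of 0.1. In polysomal RNA 71 met it with a window of 0.5 and 26 to 51 with arrays left out. Of 132 single-gene results 104 kept their side of the threshold under every alternative run, none reversed, and 101 of 1636 values fell below it; MPPalpha, CWLP and ADK2 did so most often in the interaction. The cause of these changes was not tested.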
